A study of Mus musculus with 4 samples.

Results

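The genes described here encode the receptor family of leukaemia inhibitory factor (LIF) and its relatives. They are Lifr, Il6st, Cntfr, Osmr and Il6ra, together with Ankrd55, the gene that adjoins Il6st. A peak was assigned to one of these 6 genes when its maximum lay nearer to a transcription start of that gene than to a start of any other protein-coding gene in GENCODE M1. Of 2454 nuclear peaks in the list, 3 were assigned in this way, 1 each to Ankrd55, Lifr and Il6st. Cntfr, Osmr and Il6ra had no assigned peak. Across the annotation, 1826 of 22367 protein-coding genes (8.16%) had at least 1 assigned peak, a level given for scale. The 6 genes were chosen with earlier results of these data known, and Ankrd55 was included because it adjoins Il6st. The count of 3 of 6 is therefore no test of enrichment. The same 3 genes had a peak when genes of all types could receive one (5.2% of all genes), when the most 5′ start alone stood for a gene (8.13%), among peaks within 100 kb of the start (6.91%) and among the upper 50% of peaks by score (4.65%). With only peaks inside a gene or within 10 kb of it (6.44%), Ankrd55 alone had one.

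The peaks came from Flag ChIP-seq in mouse iMN-ESCs, A172LoxP embryonic stem cells that carry a Tet-inducible construct coding for Isl1 fused to Lhx3 with a Flag tag. With Dox (doxycycline at 2 µg/mL) the fusion was induced (n = 2 libraries), and without Dox (n = 2 libraries) the Flag antibody had no induced target. All 4 libraries came from embryoid bodies kept in retinoic acid at 0.5 µM throughout, alone for 2 days and then for 4 more days in which Dox was present or absent, and given LIF at 1000 units/mL for the last 16 hours, so LIF itself was not varied. The fusion was supplied by a transgene in place of the endogenous factors, and the labels do not say whether the transfectants were 1 clone or whether the 2 sets were separate cultures. The list gives 1 ChIP score, 1 background score and 1 tag count per peak for the whole series, and no value per library, so no difference between with Dox and without Dox was tested and no spread between sets could be given. It holds no RNA values, so the cell type could not be checked against marker genes and the expression of the 6 genes is not known from these data.

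As background, cytokines of this family signal through the shared subunit gp130, which Il6st encodes. LIF binds a heterodimer of the Lifr product and gp130, ciliary neurotrophic factor (CNTF) first binds the membrane-anchored Cntfr product and then recruits both of these, oncostatin M uses the Osmr product with gp130, and interleukin-6 uses the Il6ra product with gp130. Engaged receptors activate JAK kinases and STAT3. LIF keeps mouse embryonic stem cells undifferentiated, and LIF and CNTF are survival factors for motor neurons. Ankrd55 encodes an ankyrin-repeat protein outside this pathway. Isl1 and Lhx3 are LIM-homeodomain factors that act together in motor neuron specification, and homeodomains of this class bind sequences with a TAAT (ATTA) core.

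The sequences at the 3 maxima are shown because they differ in homeodomain cores. The strongest peak by ChIP score holds the fewest cores in them and the weakest holds the full TAATTA. Each is 300 bases of the plus strand of mm9 centred on the maximum, and capitals mark every ATTA core on either strand and, in the Lifr sequence, also the 2 octamers (ATGCAAAT). The positions are chr13:113166069-113166368 for Ankrd55, chr15:7065656-7065955 for Lifr and chr13:113189517-113189816 for Il6st.
Ankrd55 peak: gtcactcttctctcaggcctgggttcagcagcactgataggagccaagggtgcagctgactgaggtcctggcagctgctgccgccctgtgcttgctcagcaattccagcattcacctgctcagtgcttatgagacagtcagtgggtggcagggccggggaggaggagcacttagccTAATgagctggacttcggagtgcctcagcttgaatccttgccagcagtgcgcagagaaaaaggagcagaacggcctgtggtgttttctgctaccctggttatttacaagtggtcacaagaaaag
Lifr peak: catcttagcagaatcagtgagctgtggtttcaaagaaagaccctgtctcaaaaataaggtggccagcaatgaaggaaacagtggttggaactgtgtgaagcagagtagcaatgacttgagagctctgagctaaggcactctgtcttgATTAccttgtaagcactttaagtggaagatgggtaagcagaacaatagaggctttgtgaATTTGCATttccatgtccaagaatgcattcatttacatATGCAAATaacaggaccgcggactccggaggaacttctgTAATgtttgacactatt
Il6st peak: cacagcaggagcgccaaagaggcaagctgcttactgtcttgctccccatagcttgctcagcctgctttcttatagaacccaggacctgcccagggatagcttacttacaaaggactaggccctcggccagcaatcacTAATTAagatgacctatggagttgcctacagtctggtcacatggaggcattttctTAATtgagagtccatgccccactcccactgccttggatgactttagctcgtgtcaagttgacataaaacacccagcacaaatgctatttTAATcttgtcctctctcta

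**Figure D1:**
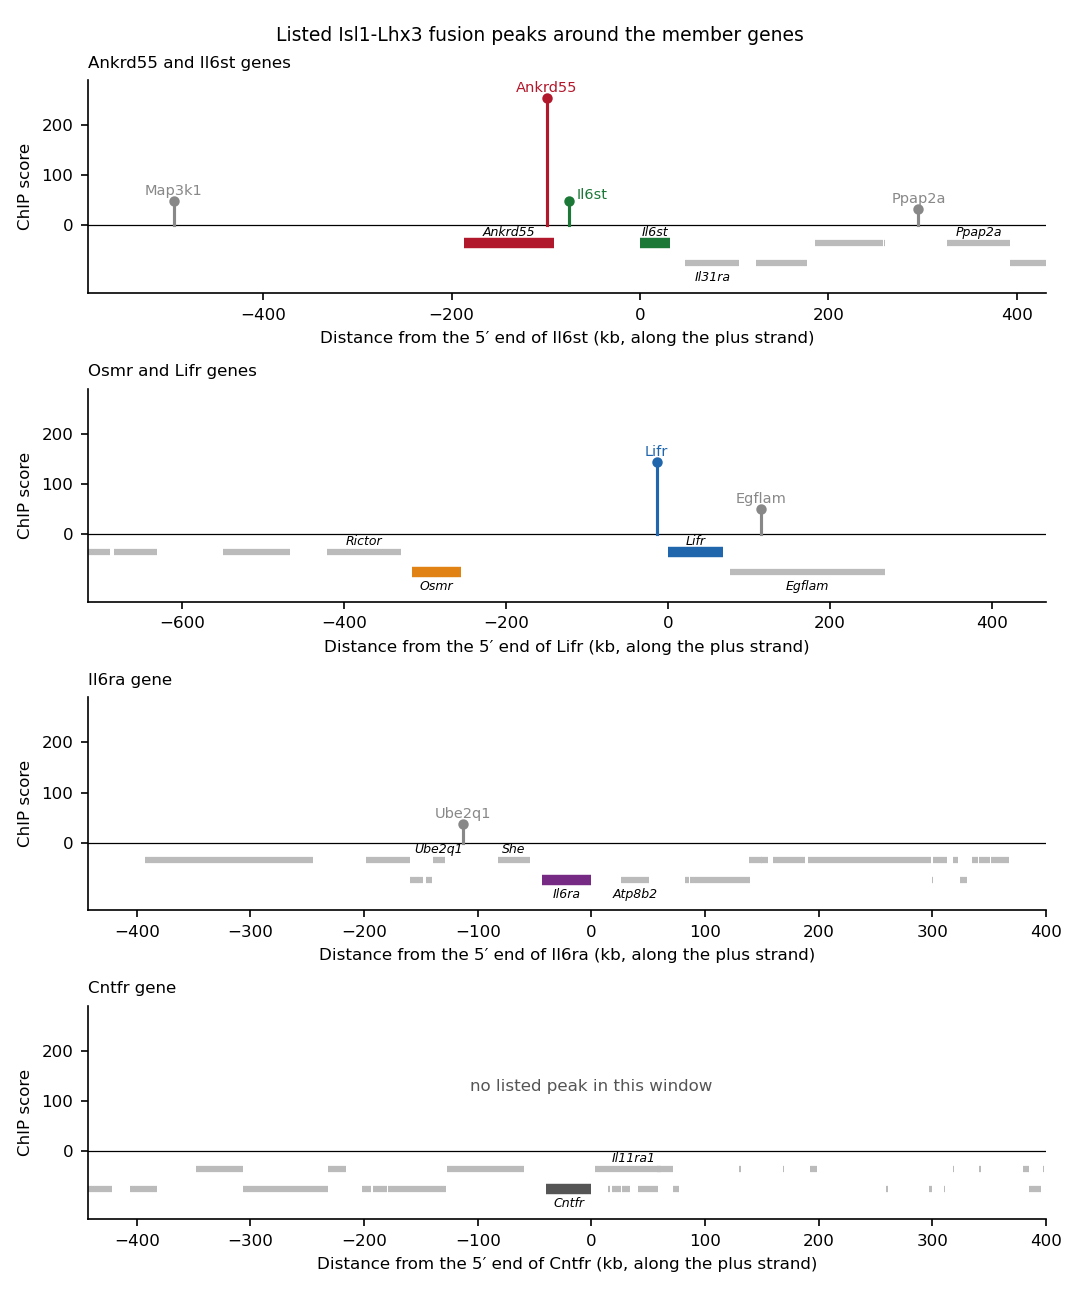
ChIP score of every listed peak (vertical lines, coloured by assigned gene, grey for other genes) around the members, against distance from the 5′ end of Il6st, Lifr, Il6ra or Cntfr in kb; bars below are protein-coding genes, plus strand above minus strand, reaching 400 kb to each side. The Ankrd55 and Il6st peaks lie 23.4 kb apart, the Lifr peak stands 13.75 kb before Lifr, and the Cntfr window holds no listed peak.

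Il6st, the gene of the subunit that all of these receptors share, had its assigned peak at chr13:113189417-113189916, between genes. The maximum lay 75.55 kb upstream of its only annotated start and 15.5 kb past the 3′ end of Ankrd55, within the 91.0 kb that separate the genes. An internal start of Ankrd55 was only slightly farther away, at 81.0 kb, so the assignment to Il6st was a close one. The first start of Ankrd55 was 111 kb away. The ChIP score was 48.98, the background score 1.86, and the region of 417 bp held 29 tags (19.4 to 41.6, 95% Poisson interval). This put the peak at rank 767 of 2454 by score, above the list median of 40.95, but at rank 1353 by tags, below the list median of 31. It was a peak of middling strength in a region slightly shorter than the median of 480 bp.

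Ankrd55 held the strongest peak of the 3, at chr13:113165969-113166468, with a ChIP score of 254.27 (rank 4). Its background score was 1.70, and its region held 160 tags (95% Poisson interval 136 to 187). The maximum was intronic. In transcript ENSMUST00000022275.6, of 11 exons, it lay in intron 9, at 7.66 kb from the exon before and 5.12 kb from the exon after. The same intron of 12.8 kb is intron 10 of ENSMUST00000165593.1, which has 12 exons. The maximum lay outside the other annotated transcripts of the gene. The peak was thus in the distal end of the gene, 7.99 kb before its 3′ end. Its distance was 57.56 kb to an internal start of Ankrd55 and 87.56 kb to the first start of the gene, and 99.0 kb to the start of Il6st. The assignment to Ankrd55 over Il6st held for either choice of Ankrd55 start. The list alone does not show which gene, if either, the bound site acts on.

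Both maxima of this locus therefore lay upstream of Il6st, 23.4 kb from each other, and both were within 100 kb of its start. In the list, 482 of 2454 peaks (19.6%) had a peak of another region within 25 kb. The next listed peaks outward belonged to other genes. One was assigned to Map3k1 with a score of 49.25, and one beyond Il31ra was assigned to Ppap2a with a score of 32.65. Il31ra, which encodes a further receptor chain of this family and follows Il6st at a distance of 15.9 kb, had no assigned peak.

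The Ankrd55 peak stood out for its height at a distance from any start. Among the 794 listed peaks more than 50 kb from their assigned start, it had the highest score, and the Il6st peak was at rank 268, while their median score was 41.22. Among 1113 intronic peaks the Ankrd55 peak was at rank 3. It was also the strongest of 108 peaks on chromosome 13. Its tags were dense, with 197 tags per kb of region against a list median of 66.11 (rank 9).

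Lifr, the gene of the LIF receptor chain, had its assigned peak at chr15:7065556-7066055, between genes and 13.75 kb upstream of its first start. The ChIP score was 143.19 (rank 35 of 2454), the background score 4.84, and the tag count 184 (158 to 213, 95% Poisson interval; rank 13). A later start of Lifr lay 38.5 kb from the maximum, and the nearest other protein-coding gene by start was Egflam at 107 kb. The peak was at rank 3 of 94 on chromosome 15 and rank 14 of 1246 peaks between genes. A 2nd listed peak also lay within 100 kb of a start of Lifr. It was in an intron of Egflam, to which it was assigned, 46.8 kb past the end of Lifr and 128 kb from the Lifr peak. Its score was 50.85 (rank 711).

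The Lifr region was broad where the Ankrd55 region was compact. It spanned 1904 bp, against 814 bp at Ankrd55 and 417 bp at Il6st, and among the 2166 regions with 1 maximum it was at rank 3 by length (median 455 bp). The maximum lay off centre, at 629 bp from the start of the region and 1274 bp from its end, so most of the region extended towards Lifr. Its tags per kb were 96.6 (rank 373), and its score per tag was 0.778, against 1.59 at Ankrd55, 1.69 at Il6st and a list median of 1.413. Lifr therefore had more tags than Ankrd55 but a lower score, and the Poisson intervals of these tag counts overlap.

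**Figure D2:**
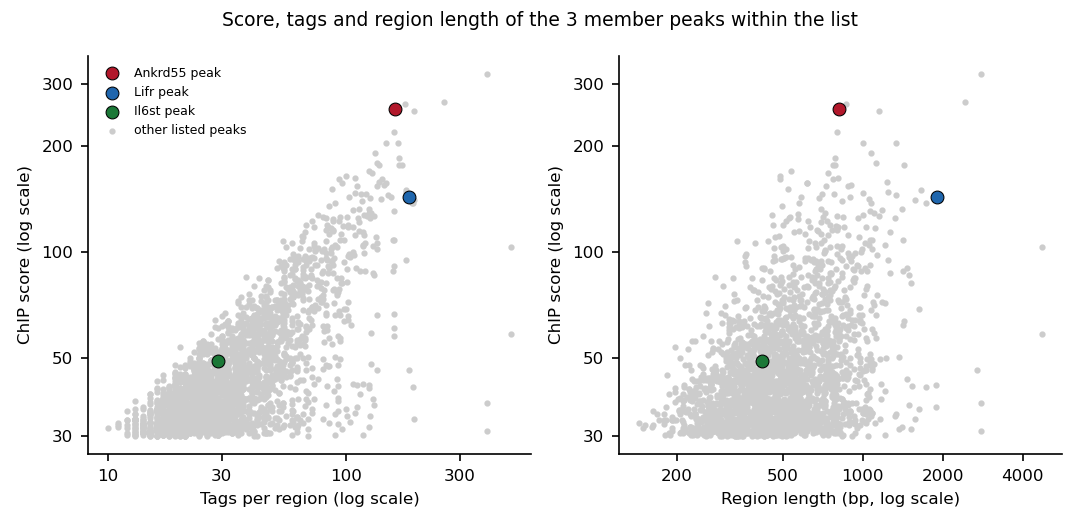
ChIP score against tags per region (left) and region length in bp (right) for the Ankrd55, Lifr and Il6st peaks (large points) and all other listed peaks (grey), all axes logarithmic. The Lifr region, at 1904 bp, is far to the right of the Ankrd55 region, at 814 bp, although its score is lower (143.19 against 254.27).

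The background score was 0.669% of the ChIP score at Ankrd55, 3.38% at Lifr and 3.80% at Il6st, against a list median of 0.7225% and an upper quartile of 4.59%. The share was thus just below the median at Ankrd55 and between the median and the upper quartile at Lifr and Il6st. By ChIP over background score, with 1 added to each, the peaks of Ankrd55, Lifr and Il6st were at ranks 61, 1456 and 1709 of 2454, against ranks 4, 35 and 767 by the ChIP score alone, so that Lifr and Il6st were below the middle of the list by this measure. The Lifr value of 4.84 was itself among the higher ones of the list (rank 114), well above the median of 0.345. The origin of the background score is not stated, so these ratios are not a with Dox against without Dox comparison.

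The 500 bp windows at Ankrd55 and Lifr held no 31-base word that occurred elsewhere in the mm9 genome, as was so for 1635 of 2454 windows (66.6%). At Il6st, 442 of 470 such words occurred at 1 place. The other 28 fell in 3 stretches, the most repeated of them from 112 to 62 bp before the maximum, with words at up to 744 places. How tags that matched several places were counted is not given, and its part in the Il6st score was not tested. The maximum itself lay outside these stretches.

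Osmr, the gene of the oncostatin M receptor chain, lies on the minus strand of chromosome 15 (6763577 to 6824313) with its start 255 kb from that of Lifr. The closest listed peak was the Lifr peak, 241.5 kb upstream of the Osmr start, and 39.9% of protein-coding genes had a closer peak. Il6ra, the gene of the interleukin-6-binding chain, lies on chromosome 3 (89673246 to 89717084, minus strand). Its closest peak was 112.9 kb downstream of its start, between genes, with a score of 37.74 and 17 tags, and was assigned to Ube2q1. For Il6ra, 23.0% of protein-coding genes had a closer peak.

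Cntfr, the gene of the CNTF-binding chain, lies on chromosome 4 (41604529 to 41644121, minus strand), and its start is 2.9 kb from that of Il11ra1, the interleukin-11 receptor gene on the opposite strand. No listed peak lay within 400 kb of the gene. The closest was 723.6 kb from its start, inside Bag1, with a score of 46.57, and 70.9% of protein-coding genes had a closer peak. Cntfr was the member farthest from any peak, and unlike Osmr and Lifr it lies among many other genes, so that only 49.8 kb of sequence were nearest to its starts, compared with 348 kb for Ankrd55, 211 kb for Osmr, 187 kb for Lifr, 131 kb for Il6st and 56.2 kb for Il6ra. A peak had more sequence in which to be assigned to Ankrd55 than to Cntfr. As the depth of the libraries and the caller's threshold are not known, a gene without a peak is one with no listed site (the lowest listed score is 29.98), which does not show that no fusion was bound there.

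The nearest peak was within 100 kb of a start at Lifr, Ankrd55 and Il6st, 3 of 6 members, against 4698 of 22350 protein-coding genes (21%). The median distance over all these genes was 344 kb. As the members were chosen with earlier results known, these shares are no test either. None of the 3 member peaks was proximal to a promoter. The closest, at Lifr, was 13.75 kb from a start, whereas 539 of 2454 listed peaks (22.0%, 20.3 to 23.7, exact 95% binomial interval) lay within 5 kb of their assigned start.

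**Figure D3:**
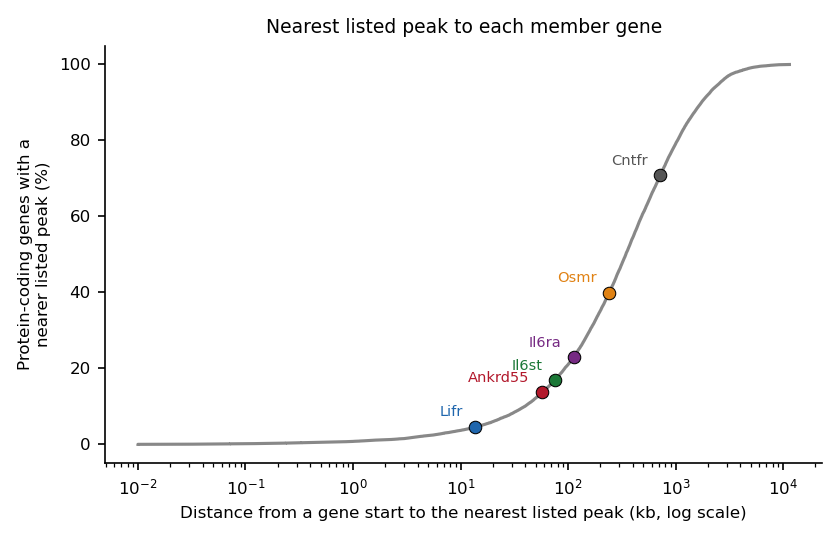
Share of protein-coding genes with a nearer listed peak (y axis, %) against the distance from a gene start to its nearest listed peak (x axis, kb, log scale); the line runs over 22350 genes and points are the 6 members. Lifr sits lowest, at 4.61%, and Cntfr highest, at 70.9%.

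Homeodomain cores differed between the 3 peaks. In 200 bp centred on the maximum, both strands searched, TAATTA was present at Il6st and at neither Ankrd55 nor Lifr, 1 of 3 member peaks against 34.2% of listed peaks. At Il6st it lay 9.5 bp before the maximum, and a further ATTA core lay 44.5 bp after it. The shorter ATTA, of which TAATTA holds 2 overlapping copies, matched 3 times at Il6st but 1 time each at Ankrd55 and Lifr, against a list median of 3 and at least 1 match in 94.2% of listed peaks. The single core at Lifr was centred 0.5 bp from the maximum, and 4.48% of listed peaks had a core as near. At Ankrd55 the only core of the 500 bp window was 28.5 bp after the maximum, farther than the list median of 16.5 bp.

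These cores are the capitals in the sequences above. By ChIP score, the strongest and the second strongest member peak thus each had a single ATTA in 200 bp, and the peak with TAATTA was the weakest. A relation of score to cores over the list was not tested. Over the called regions the density of ATTA was 2.46 per kb at Ankrd55, 10.5 per kb at Lifr and 14.4 per kb at Il6st, against 10.4 per kb over all regions. The GC content of the 200 bp windows was 58.5% for Ankrd55, 41.0% for Lifr and 49.5% for Il6st, against a list median of 48.0%. Ankrd55, with the fewest cores, thus had the highest GC content of the 3, and the part of base composition in the core counts was not tested.

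Spaced pairs of cores had no match in the same windows at the 3 peaks. Among listed peaks, ATTA followed by TAAT was present in 4.97% with 3 bases between and in 3.55% with 2 bases between, TAATTAAT in 6.81%, and TAAT repeated after 5 bases in 6.03%. The broad Lifr region had 1 inverted pair with 2 bases between, 966.5 bp after the maximum on the Lifr side. The Ankrd55 window had instead 2 copies of the E-box CAGCTG, a site of basic helix-loop-helix factors, with 13 bases between them at 94.5 and 75.5 bp before the maximum. At least 1 CAGCTG was found in 13.9% of listed peaks in 200 bp, and 2 or more in 1.39%. The 500 bp window of Lifr also held 1 CAGCTG, 175.5 bp before its maximum, beside 29.2% of listed peaks with at least 1.

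The Lifr window had 2 copies of the octamer ATGCAAAT, a site of POU factors, in opposite orientations with 30 bases between them. They were centred 60.5 and 98.5 bp after the maximum. In the 500 bp windows 6.6% of listed peaks held at least 1 octamer and 0.530% held 2 or more, and neither the Ankrd55 nor the Il6st window held any. A SOX-type ATTGTT lay 40.5 bp after the Lifr maximum, before the first octamer, and at least 1 ATTGTT was found in 14.3% of listed peaks in 200 bp. The 500 bp window of Il6st also held 1 ATTGTT, 184.5 bp before its maximum, beside 29.2% of listed peaks with at least 1. The motifs are matches of letters only, and binding by POU, SOX or helix-loop-helix factors was not measured. In all, 13 motifs were searched, and no match was tested against the list.

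**Figure D4:**
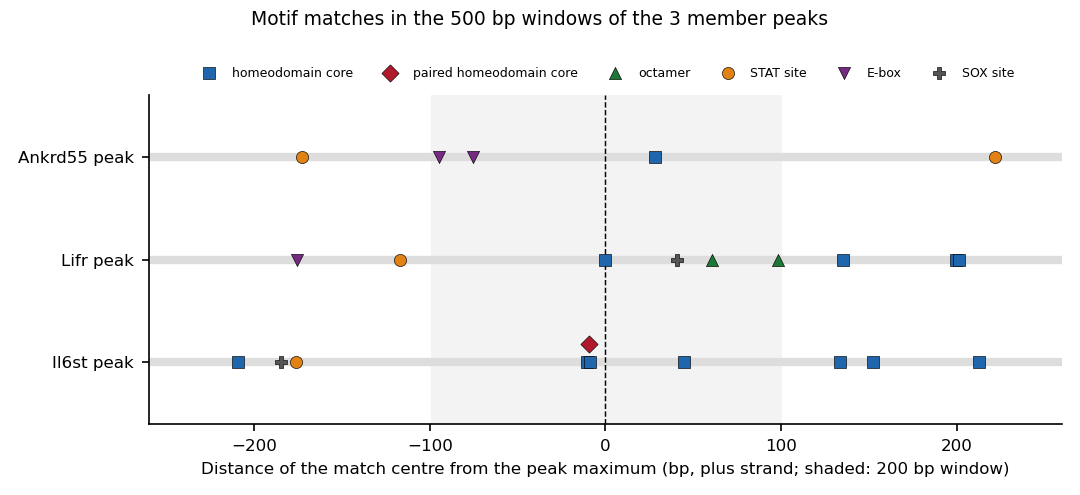
Places of motif matches (symbols by motif) in the 500 bp windows of the Ankrd55, Lifr and Il6st peaks, as distance of the match centre from the peak maximum in bp on the plus strand, with the 200 bp window shaded. The homeodomain core lies at the maximum in Lifr and within 10 bp of it in Il6st, the 2 octamers lie to the right of the Lifr maximum, and all STAT sites lie outside the shaded window.

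The title of the series names STAT3, which acts downstream of these receptors, so STAT sites were searched at the receptor genes themselves. STAT3 binding was not measured in these libraries. No TTCNNNGAA, the relaxed STAT site, lay in the 200 bp windows of the 3 peaks, and 4.97% of listed peaks held one; the strict site TTCCNGGAA, in 0.733% of listed peaks, was absent there too. In the 500 bp windows all 3 member peaks held one, against 13.7% of listed peaks. Ankrd55 had 2, at 173 bp before and 222 bp after the maximum, Lifr had 1 at 117 bp before it and Il6st had 1 at 176 bp before it. A spacing with 2 bases (TTCNNGAA) had no match in the same 3 windows, against 14.8% of listed peaks. With 4 bases between TTC and GAA there was no match there either, against 12.9% of listed peaks.

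All of these sites lay inside the called regions, and the broad Lifr region held further ones at 265 and 284 bp before the maximum. The last of these also matched the strict site, which 2.22% of called regions (51 of 2301) held. Per kb of called region, TTCNNNGAA occurred 2.46 times at Ankrd55, 1.58 times at Lifr and 2.40 times at Il6st, against 0.318 times over all regions. Over the same regions TTCNNGAA occurred 2.46, 1.58 and 0 times per kb at Ankrd55, Lifr and Il6st, against 0.323 over all. The pair with 4 bases between occurred 0, 0.525 and 0 times per kb, against 0.286 over all. At Ankrd55 and Lifr the pair with 2 bases between was thus as dense as TTCNNNGAA. Of these 6 sites, 5 are shown, the 4 of the 500 bp windows and the strict one, with 10 bases to each side on the plus strand of mm9, with the site in capitals; they begin and end at chr13:113166031-113166059, chr13:113166426-113166454, chr15:7065507-7065535, chr15:7065674-7065702 and chr13:113189476-113189504.
Ankrd55, 173 bp before: actgctggctTTCACTGAAtggccccctt
Ankrd55, 222 bp after: acttttttttTTCCCAGAAttttctagat
Lifr, 284 bp before (strict): tggggagagaTTCCAGGAAatgaaacaac
Lifr, 117 bp before: gagctgtggtTTCAAAGAAagaccctgtc
Il6st, 176 bp before: atcattgttcTTCATTGAAggaagccagg

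The 4 lists of other genes were ligands, related receptors, signalling and feedback regulators. Of their 29 genes, 2 had an assigned peak, a share near the 8.16% of all protein-coding genes. Among 9 ligand genes it was Cntf, with a peak of score 33.46 and 33 tags at 34.39 kb from its start, while Lif, Il6, Il11, Osm, Ctf1, Clcf1, Il27 and Ebi3 had none. The peak of Cntf lay nearer to the noncoding Gm15962. Among 8 related receptor genes it was Csf3r, which encodes the receptor of granulocyte colony-stimulating factor, with 3 peaks in 2 regions and a highest score of 35.06, and Il11ra1, Il27ra, Il31ra, Lepr, Il12rb1, Il12rb2 and Il23r had none.

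The Csf3r peaks were 102.0 to 159.4 kb upstream of its start, and the strongest was 3 bp from a start of 2610028E06Rik, which is not annotated as protein-coding. When genes of any type could receive a peak, 0 of the 29 genes had one, beside 5.2% of 37273 genes of all types, a level at which 0 of 29 is not a result about these genes. The genes of JAK and STAT signalling (Jak1, Jak2, Tyk2, Stat3, Ptpn11, Grb2 and Gab1) and the feedback regulators (Socs1, Socs2, Socs3, Cish and Pias3) had no assigned peak. A listed peak lay within 100 kb of a start of 6 of the 29 genes, beside 21% of all protein-coding genes. The distances were 20.7 kb for Pias3, 34.4 kb for Cntf, 38.2 kb for Socs2, 51.8 kb for Stat3, 67.6 kb for Grb2 and 87.3 kb for Il27ra. The scores at Ankrd55 (254.27), Lifr (143.19) and Il6st (48.98) were each above the highest at Csf3r (35.06) and Cntf (33.46).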

How the data were processed

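Flag ChIP-seq libraries were made with Dox (n = 2) and without Dox (n = 2). Reads were aligned with BWA 0.5.8a to mm9, per the submitters' processing notes. Not given in the sources used here are the peak caller, its threshold, the handling of multiply placed tags and any pooling of sets. The authors deposited 1 list of 2455 peaks in 2302 regions. Its ChIP score and background score are deposited values with no stated scale, read as the unit score, and its ChIP tags are a deposited count per region. No column gives a value per library, so depth is unknown. A mitochondrial peak was left out.

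Maxima were assigned to the nearest of all annotated starts of 22367 protein-coding genes (GENCODE M1, on the same build; 0 windows ran past a chromosome end). Motifs were searched on both strands, and 31-base words were counted across the genome, with Python 3.11.15, pysam 0.24.0, numba 0.67.0 and scipy 1.17.1. The assignment, the motif search and the word counts were tested on simulated data. Intervals are at 95% and cover counting error only. The binomial interval treats peaks as independent, though some share a region. The alternatives were other gene types, starts, distances, strength measures and windows.

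The 6 members and the 4 lists were chosen with earlier results of these data known. Named genes are the members, hosts and neighbours of their peaks, and list genes. Some list genes are not reported here and are not in the counts. Map3k1, Ppap2a, Ube2q1 and Bag1, the genes assigned the next listed peaks, were named after their values were seen.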

Additional observations from a re-analysis of the deposited data

How the results depend on the processing

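The same 3 members had a peak when genes of all types, the most 5′ start, a limit of 100 kb or the higher-scoring 50% of peaks were used, with 3 peaks each except 4 for the most 5′ start, which moved an Egflam intronic peak (score 50.85) to Lifr. When a peak had to lie inside a gene or within 10 kb of it, 1 member and 1 peak were left. By ChIP tags the ranks were 23 for Ankrd55, 13 for Lifr and 1353 for Il6st, and by ChIP over background score with 1 added to each they were 61, 1456 and 1709. The cause was not tested. The relaxed STAT site was at 3 member peaks in 500 bp and at 0 in 100 bp or by the strict site. The share of listed peaks in 100 bp and in 500 bp windows was 26.3% and 41.6% for TAATTA, 84.8% and 98.8% for ATTA, 4.89% and 8.52% for TAATTAAT, 4.4% and 7.82% for TAAT repeated after 5 bases, 2.04% and 13.7% for TTCNNNGAA, 0.285% and 2.04% for TTCCNGGAA, 2.12% and 12.9% for TTC and GAA with 4 bases between, 1.96% and 14.8% for TTCNNGAA, 7.58% and 29.2% for CAGCTG, 2.2% and 6.6% for ATGCAAAT, and 7.46% and 29.2% for ATTGTT, and in 100 bp 3.83% and 2.53% for ATTA followed by TAAT with 3 and 2 bases between; these follow the length searched. No paired analysis was possible because the list has no value per library. Unknown depth limits what the absence of a peak shows.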

Other observations

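The ChIP scores of the list lay on a grid. All 2454 were within 0.01 of a whole multiple of 0.2676, so that the list held 337 distinct scores. The peaks ranked next to the Il6st peak on both sides had its score of 48.98.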
